A study of Mus musculus with 12 samples.

Results

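The comparison set memory precursor CD8 T cells taken on day 14 against effector CD8 T cells taken on day 7 of an infection experiment. Its samples are 4 of the 12 libraries of the series: 2 of Rroid2 WT MPEC OT-I cells taken on day 14 and 2 of Rroid2 WT SLEC OT-I cells taken on day 7, chosen by their labels and not by any measured value. Of 55421 genes in the count table, the 14460 that passed a filter on low counts were compared. MPEC are memory precursor effector cells and SLEC are short-lived effector cells; MPEC were taken only on day 14, and WT MPEC stands for that group below. The other libraries are 2 of Rroid2 WT SLEC on day 14 and 2 each of Rroid2 KO MPEC on day 14, KO SLEC on day 14 and KO SLEC on day 7. All 12 come from OT-I cells, which carry a transgenic T cell receptor for an ovalbumin peptide. These cells had been transferred into host mice infected with *Listeria monocytogenes* expressing ovalbumin (LM-OVA), and were sorted from the spleen by flow cytometry. All cells of a group therefore share 1 receptor and 1 antigen, which a natural response does not. Population and day change together in this contrast, so their parts in a difference cannot be told apart; WT SLEC day 14 levels are given beside several results for that reason, as levels only.

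After infection, an activated CD8 T cell clone expands into many effector cells that make granzymes and cytokines. Most of them, the KLRG1-high terminal effectors driven by T-bet, ZEB2 and BLIMP-1, die as the response contracts. A minority keeps the interleukin 7 receptor, TCF1 and BCL2, returns to rest, recirculates through lymphoid organs and seeds long-lived memory.

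Total counts were 12665122 and 10951559 in WT MPEC and 14026594 and 12346072 in WT SLEC day 7, so 3 counts in a library lie well under 1 CPM. CPM is a gene's count relative to its library's total, scaled by trimmed mean of M-values factors. The libraries were checked against the CD8 and OT-I labels: *Cd8a* had 10031 and 8451 counts in WT MPEC and 14028 and 11327 in WT SLEC day 7, and *Cd4* had at most 14 counts in any of the 4. The beta chain segment of the OT-I receptor, *Trbv12-1*, took 97.3% or more of the beta variable segment counts in these 4 libraries. Its alpha chain segment, Trav14, took 14 of 17 and 9 of 60 alpha variable segment counts in WT MPEC, against 5 of 30 and 6 of 29 in WT SLEC day 7, so at these low counts the alpha chain was not checked. No gene of the table bears the symbol Rroid2, so the targeted locus was not checked here. The WT SLEC day 7 libraries differed most between themselves, with a chi-square per degree of freedom of 72.9, against 12.8 in WT MPEC. Replicate 2 of WT SLEC day 7 held more RNA of dividing cells than replicate 1. Nothing in the labels tells whether both libraries of a group came from separate animals, so p-values measure the spread between libraries, which may be technical. In such bulk samples fewer cells of a type and less RNA per cell cannot be told apart.

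RNA of B cells moved with the contrast. The 17 B cell marker genes summed to 444 and 151 CPM in the WT MPEC libraries, against 28.7 and 102 CPM in WT SLEC day 7. All 17 had a positive log2 change, and 1, the immunoglobulin heavy chain gene *Ighm*, was called; its adjusted p was 0.14 without WT SLEC day 7 replicate 1, 0.098 without WT SLEC day 7 replicate 2, 0.093 without WT MPEC replicate 1, and 0.086 without WT MPEC replicate 2. The defining genes *Ms4a1* and *Cd79a* had 182 and 89 counts in WT MPEC replicate 1 and 0 counts each in replicate 2. WT SLEC day 14 had the highest B cell sums of the WT groups, at 913 and 3239 CPM. Monocyte and macrophage genes summed to 328 and 325 CPM in WT MPEC and 379 and 467 CPM in WT SLEC day 7, and neutrophil, erythroid, platelet, plasma cell and classical dendritic cell genes to 22.1 CPM or less in each of the 4. Stroma genes summed to 61.0 and 75.8 CPM in WT MPEC, against 4.29 and 11.7 CPM in WT SLEC day 7. Only 1 of the 8, *Pecam1*, passed the low-count filter, and it was called higher (log2 change 3.24). The other members were too low to test, so a rise of stroma genes as a group was not shown. NK cell genes, of which T cells also express *Eomes*, summed to 181 and 198 CPM in WT MPEC, against 83.8 and 75.5 CPM in WT SLEC day 7. Most of each sum was *Eomes*, with 165 and 171 CPM in WT MPEC and 57.3 and 68.3 CPM in WT SLEC day 7. The sums were 41.6 and 40.5 CPM for CD4 T cell genes in WT MPEC and 41.2 and 45.5 CPM in WT SLEC day 7, and for gamma delta T cell genes 99.9 and 44.8 CPM in WT MPEC and 44.9 and 86.5 CPM in WT SLEC day 7. The part of these other cells in the results below was not tested.

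A broad part of the transcriptome differed. At a Benjamini-Hochberg adjusted p under 0.05 in edgeR's quasi-likelihood test, 1176 genes were higher and 1307 lower in WT MPEC than in WT SLEC day 7, which is 8.13% and 9.04% of the genes tested (17.2% together). Large falls outnumbered large rises: 277 genes were at least 8-fold lower and 123 at least 8-fold higher, while 738 were at least 2-fold lower and 648 at least 2-fold higher. The median called rise was 1.09 and the median called fall -1.14 on the log2 scale, and the median over all tested genes was 0. Without WT MPEC replicate 1 the counts were 650 higher and 589 lower, and without replicate 2 they were 539 and 477. The remaining MPEC library was then assumed to vary like the other groups. The shares of 8.13% higher and 9.04% lower are the background for each count of WT calls in a gene group below. The plot of gene groups shows which functions took part.

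**Figure D1:**
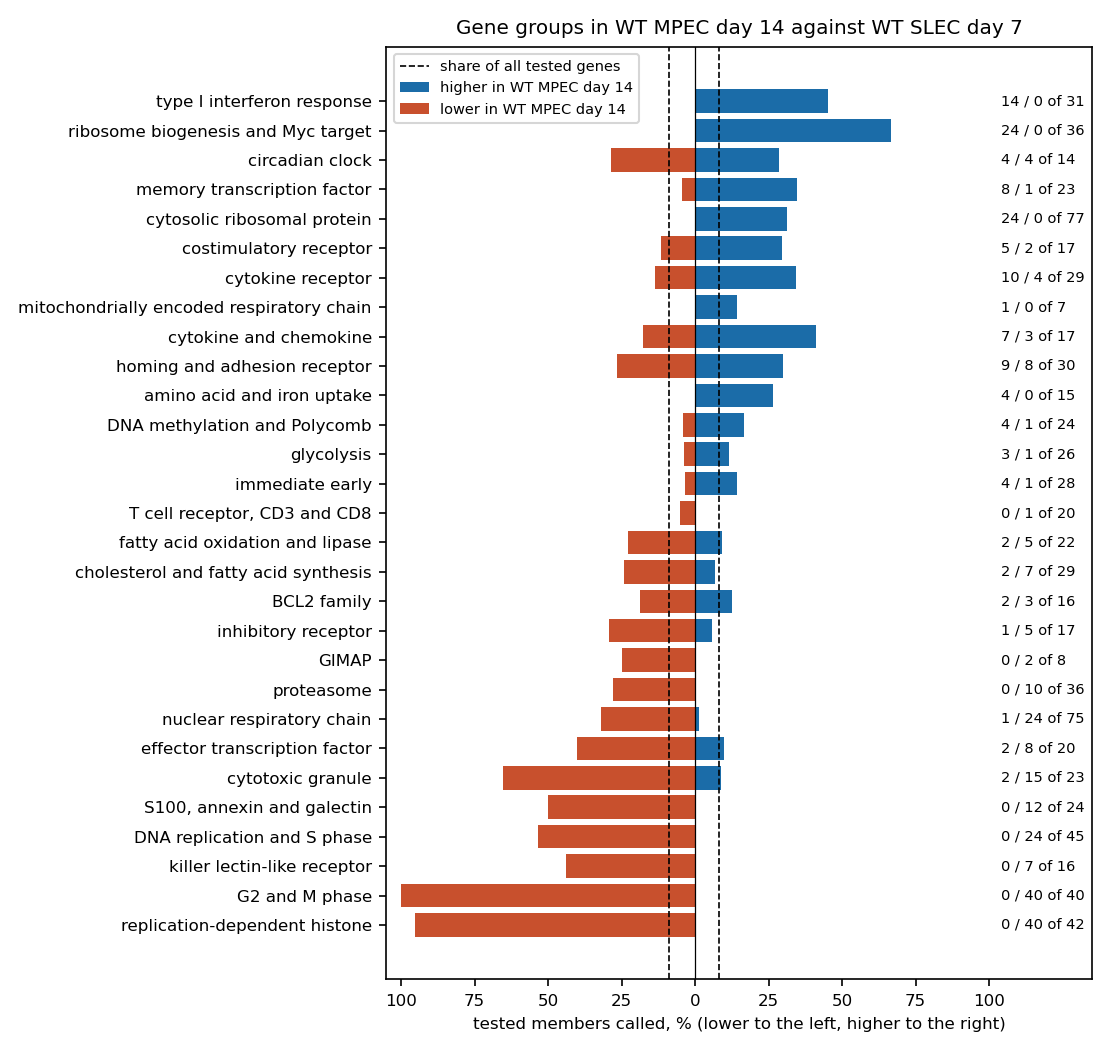
Share of the tested members of each of 29 gene groups that was called higher (right, blue) or lower (left, red) in WT MPEC day 14 than in WT SLEC day 7, in percent; dashed lines are the shares over all tested genes, 8.13% and 9.04%. Numbers at the right are members higher, lower and tested. All 40 G2 and M phase genes lie on the lower side, and 24 of 36 ribosome biogenesis genes on the higher side.

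The genes by which these populations are conventionally sorted followed their labels. The sources used here give no gates, but SLEC are usually KLRG1-high and CD127-low, so the values describe the sort. *Il7r* (ENSMUSG00000003882.5, chromosome 15, 9505788 to 9530176, minus strand), which encodes CD127, had 759.8 and 998 CPM in WT MPEC, against 14.1 and 18.7 CPM in WT SLEC day 7 (log2 change 5.74 ± 0.26 SE, adjusted p = 6.6e-10). *Klrg1* (ENSMUSG00000030114.8, chromosome 6, 122270596 to 122282882, minus strand), an inhibitory lectin receptor, had 1.81 and 2.54 CPM in WT MPEC, against 321 and 212 CPM in WT SLEC day 7 (log2 change -6.95 ± 0.31, adjusted p = 1.2e-10). Neither pair of groups overlapped. Over all tested genes, both WT MPEC libraries lay above both WT SLEC day 7 libraries in 28.7% and below both in 28.4%, so such a separation is common here.

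Genes of the cytotoxic granule were mostly lower in WT MPEC. Of 23 tested members (of 24 listed), 15 were lower and 2 higher, with a median log2 change of -0.65. Fewer were called lower without either WT SLEC day 7 library, and fewer again without either WT MPEC library. *Gzma* (ENSMUSG00000023132.8, chromosome 13, 113093825 to 113100981, minus strand), encoding the tryptase granzyme A, had 12.6 and 9.61 CPM in WT MPEC, against 3660.4 and 2031 CPM in WT SLEC day 7 (log2 change -7.99 ± 0.37, adjusted p = 5.0e-08). The groups did not overlap, and WT SLEC day 14 lay between, at 989.7 and 987 CPM. *Gzmb*, encoding granzyme B, which cleaves caspase substrates in the target cell, had 127 and 82.6 CPM in WT MPEC, against 973 and 1455 CPM in WT SLEC day 7 (log2 change -3.53 ± 0.35, adjusted p = 1.0e-04). *Gzmk* had 39.0 and 40.8 CPM in WT MPEC, against 167 and 155 CPM in WT SLEC day 7 (log2 change -2.01 ± 0.18, adjusted p = 7.9e-07); WT SLEC day 14 was at the MPEC level, with 39.5 and 35.6 CPM. The granzymes thus did not share 1 pattern over the 3 WT groups. The inhibitors that protect the cell from its own granzymes were lower too. *Serpinb9*, a granzyme B inhibitor, had 49.8 and 43.4 CPM in WT MPEC, against 99.3 and 143 CPM in WT SLEC day 7 (log2 change -1.38 ± 0.18, adjusted p = 4.8e-05). *Serpinb6b*, a related inhibitor, had 44.7 and 44.8 CPM in WT MPEC, against 187 and 215 CPM in WT SLEC day 7 (log2 change -2.17 ± 0.19, adjusted p = 7.9e-07). *Prf1*, encoding the pore protein perforin, had 179.5 and 185 CPM in WT MPEC, against 306 and 265 CPM in WT SLEC day 7, a log2 change of -0.65 ± 0.18 with an adjusted p of 0.018; it was 0.077 without WT SLEC day 7 replicate 1, 0.12 without WT MPEC replicate 1, and 0.11 without WT MPEC replicate 2.

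The 2 members that rose encode a granzyme and a receptor. *Gzmm*, encoding granzyme M, had 43.8 and 47.1 CPM in WT MPEC, against 10.8 and 7.68 CPM in WT SLEC day 7 (log2 change 2.30 ± 0.35, adjusted p = 4.0e-04). *Crtam*, an adhesion receptor that binds CADM1, had 108 and 108 CPM in WT MPEC, against 27.9 and 30.6 CPM in WT SLEC day 7 (log2 change 1.88 ± 0.20, adjusted p = 5.3e-06). In KO cells alone, 2 members were higher and 14 lower of 23.

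Several neighbours of *Gzma* were lower too; this region was singled out after its values were seen. Within 500 kb of the gene on chromosome 13, 11 genes were tested, *Gzma* included. In WT MPEC 8 were lower and 0 higher, against 9.04% and 8.13% of all tested genes. The 8 include *Gzma* itself, around which the window was set. *Gzmk*, given above, lies 70.6 kb away. *Cdc20b* (ENSMUSG00000078926.8, chromosome 13, 113035111 to 113091195, plus strand), a relative of the mitotic activator CDC20 known from multiciliated cells, had 0 counts over both WT MPEC libraries and 402 over WT SLEC day 7. *Gpx8* (ENSMUSG00000021760.5, chromosome 13, 113042753 to 113046410, minus strand), an endoplasmic reticulum peroxidase gene, had 0 against 623. With 3 counts over the group as a floor, *Cdc20b* was at least 125-fold lower and *Gpx8* at least 193-fold lower in WT MPEC (adjusted p = 2.4e-06 and 2.7e-04). Both had 0 counts in KO MPEC too, against 305 and 395 in KO SLEC day 7. *Esm1* (ENSMUSG00000042379.8, chromosome 13, 113209659 to 113218098, plus strand), encoding the secreted proteoglycan endocan, had 3.93 and 3.39 CPM in WT MPEC, against 161 and 147 CPM in WT SLEC day 7 (log2 change -5.38 ± 0.21, adjusted p = 2.7e-11). By annotation *Gpx8* lies inside *Cdc20b* and *Esm1* inside *Gzmk*, each on the opposite strand, and the strand setting of the count is not given, so reads of such a pair may be mixed. *Slc38a9*, an amino acid sensor of the lysosome, was not called, at -0.21 ± 0.28 on the log2 scale. *Mtrex* and *Dhx29*, an RNA helicase pair 124 to 166 kb away, were not called, at 0.22 ± 0.15 and 0.10 ± 0.16. The other 3 of the 8 were *Ccno*, *Il31ra* and *Snx18*, whose adjusted p-values ranged from 0.0044 to 0.034. The *Ccno* call ended without WT MPEC replicate 1 (adjusted p = 0.083), and each of the other 2 without any 1 of 3 libraries of the contrast (adjusted p up to 0.28 for *Il31ra* and 0.14 for *Snx18*). Without WT MPEC replicate 2 the log2 change was -8.09 for *Ccno* and -8.05 for *Il31ra*, with no counts left in WT MPEC.

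Killer lectin-like receptors were more often lower than higher. Of 16 tested killer lectin genes 7 were lower, the sort gene *Klrg1* among them, and 0 higher, with a median log2 change of -2.34, or -1.14 with genes at 0 counts in a group set to their bound. The count was 3 without WT MPEC replicate 1 and 4 without WT MPEC replicate 2. *Klrd1*, encoding the CD94 chain that pairs with NKG2 receptors, had 90.3 and 76.5 CPM in WT MPEC, against 214 and 158 CPM in WT SLEC day 7 (log2 change -1.15 ± 0.19, adjusted p = 3.5e-04). Its inhibitory partner *Klrc1* had 202 and 235 CPM in WT MPEC, against 521 and 332 CPM in WT SLEC day 7 (log2 change -0.96 ± 0.21, adjusted p = 0.0046); its adjusted p was 0.065 without WT MPEC replicate 1, and its log2 change was -0.61 without WT SLEC day 7 replicate 1. The mouse Ly49 genes are near-identical copies whose reads can be split, so single members are uncertain: *Klra3* had 1 count over WT MPEC and 358 over WT SLEC day 7, a ratio of 333-fold with a 95% counting interval of 59.5 to 13209.

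Among 17 inhibitory receptor genes, 5 were lower and 1 higher (29.4% and 5.88%), against 9.04% and 8.13% of all tested genes. Fewer were called lower without either WT MPEC library. *Havcr2*, encoding TIM-3, had 3.25 and 2.92 CPM in WT MPEC, against 49.6 and 118 CPM in WT SLEC day 7 (log2 change -4.75 ± 0.78, adjusted p = 0.0057), and the adjusted p was 0.062 without WT MPEC replicate 1 and 0.069 without WT MPEC replicate 2. *Btla*, which dampens B and T cell activation, was the member that rose, with 45.8 and 35.9 CPM in WT MPEC, against 7.55 and 9.45 CPM in WT SLEC day 7 (log2 change 2.27 ± 0.43, adjusted p = 0.0037); its adjusted p was 0.053 without WT SLEC day 7 replicate 1.

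The transcription factors of terminal effectors were more often lower than higher. Of 20 tested, 8 were lower and 2 higher (40% and 10%), against 9.04% and 8.13% of all tested genes. The median log2 change was -0.53, and fewer were called lower without either WT MPEC library. The higher ones, *Rbpj* and *Stat4*, changed by 0.96 and 0.46 on the log2 scale, and neither call held without WT SLEC day 7 replicate 1 or either WT MPEC library. *Zeb2* (ENSMUSG00000026872.18, chromosome 2, 44983632 to 45117395, minus strand), a repressor that acts with T-bet to fix the terminal state, had 126 and 116 CPM in WT MPEC, against 1051 and 534 CPM in WT SLEC day 7 (log2 change -2.71 ± 0.24, adjusted p = 3.8e-06). WT SLEC day 14 stayed high, at 1166 and 1076 CPM. *Bhlhe40*, a repressor induced by activation, had 67.5 and 72.6 CPM in WT MPEC, against 477 and 416 CPM in WT SLEC day 7 (log2 change -2.67 ± 0.39, adjusted p = 0.0018). *Prdm1*, encoding BLIMP-1, had 24.8 and 29.7 CPM in WT MPEC, against 74.6 and 66.7 CPM in WT SLEC day 7 (log2 change -1.38 ± 0.18, adjusted p = 4.1e-05). *Tbx21*, encoding T-bet, had 210.1 and 219.6 CPM in WT MPEC, against 438 and 397 CPM in WT SLEC day 7 (log2 change -0.96 ± 0.18, adjusted p = 0.0012). *Id2*, the E protein inhibitor of effector cells, had 357 and 325 CPM in WT MPEC, against 302 and 394 CPM in WT SLEC day 7, and the groups overlapped (log2 change -0.03 ± 0.18, adjusted p = 0.93). Its change was positive, at 0.18 and 0.04, without WT SLEC day 7 replicate 2 and without WT MPEC replicate 2.

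Transcription factors of memory and naive cells were higher more often than lower. Of 23 tested, 8 were higher and 1 lower, with a median log2 change of 0.50; 5 were higher without WT MPEC replicate 2. In KO cells alone 11 of 23 were higher and 1 lower, against 10.8% and 12.3% of all genes tested there. The lower gene in WT was *Nr4a1*, described below. *Tcf7* (ENSMUSG00000000782.16, chromosome 11, 52252371 to 52283014, minus strand), encoding TCF1, had 911 and 1143 CPM in WT MPEC, against 81.1 and 33.4 CPM in WT SLEC day 7 (log2 change 4.17 ± 0.73, adjusted p = 0.011). In WT SLEC day 14 it had 214 and 181 CPM. The groups were far apart, yet the adjusted p was 0.058 without WT SLEC day 7 replicate 2 or without WT MPEC replicate 2. The libraries of other groups share in the spread used here: *Tcf7* had 446 and 183 CPM in the KO SLEC day 14 libraries. *Bach2*, a repressor of effector genes, had 45.5 and 52.7 CPM in WT MPEC, against 15.9 and 9.98 CPM in WT SLEC day 7 (log2 change 1.92 ± 0.22, adjusted p = 1.1e-05). *Zeb1*, the counterpart of *Zeb2* in memory cells, had 96.1 and 102 CPM in WT MPEC, against 29.9 and 36.6 CPM in WT SLEC day 7 (log2 change 1.57 ± 0.18, adjusted p = 9.4e-06). *Foxo1*, which drives *Il7r*, had 174 and 231 CPM in WT MPEC, against 104 and 99.9 CPM in WT SLEC day 7 (log2 change 0.99 ± 0.15, adjusted p = 2.4e-04). *Foxp1*, a regulator of T cell quiescence, had 322 and 360.1 CPM in WT MPEC, against 209.6 and 124 CPM in WT SLEC day 7 (log2 change 1.03 ± 0.19, adjusted p = 8.5e-04). *Tox*, a factor of T cell development and exhaustion, had 23.9 and 43.9 CPM in WT MPEC, against 3.50 and 6.45 CPM in WT SLEC day 7 (log2 change 2.74 ± 0.36, adjusted p = 4.8e-05). *Id3*, a relative of *Id2* that marks memory precursors, was low throughout, with 3.93 and 6.41 CPM in WT MPEC, against 1.27 and 0.998 CPM in WT SLEC day 7 (log2 change 2.15 ± 0.65, adjusted p = 0.025). Its adjusted p was 0.066 without WT SLEC day 7 replicate 1, 0.11 without WT SLEC day 7 replicate 2, and 0.21 without WT MPEC replicate 2.

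Other memory regulators did not pass the test. *Eomes*, a T-box factor needed for memory upkeep, had 165 and 171 CPM in WT MPEC, against 57.3 and 68.3 CPM in WT SLEC day 7 (log2 change 1.42 ± 0.54, adjusted p = 0.13). Its KO SLEC day 14 libraries had 133 and 33.0 CPM, and without replicate 1 or replicate 2 of that group the adjusted p was 1.4e-04 and 1.9e-04. *Lef1*, the relative of *Tcf7*, had 239.7 and 291 CPM in WT MPEC, against 183 and 153 CPM in WT SLEC day 7 (log2 change 0.66 ± 0.33, adjusted p = 0.21); KO SLEC day 14 had 294 and 695 CPM, and the adjusted p was 0.013 without either of these libraries. *Klf2*, which controls lymphoid homing, had 395 and 457 CPM in WT MPEC, against 587 and 443 CPM in WT SLEC day 7 (log2 change -0.27 ± 0.16, adjusted p = 0.26), with overlapping groups. The B cell sums given above moved with this group as well, and their part in it was not tested.

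**Figure D2:**
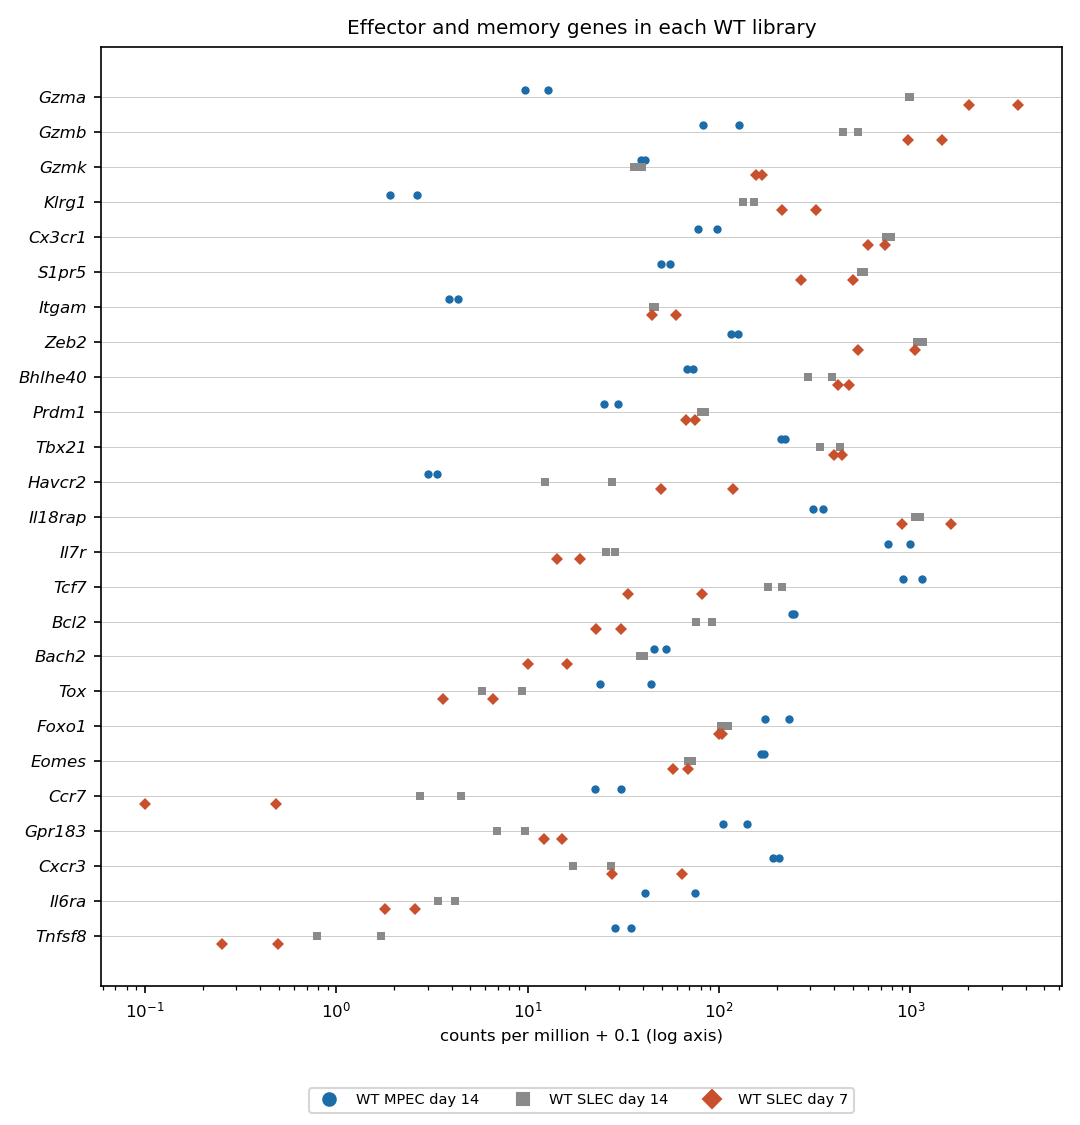
Level of 25 genes in each WT library, in CPM plus 0.1 on a log axis; each symbol is 1 library, with WT MPEC day 14 as blue circles, WT SLEC day 14 as grey squares and WT SLEC day 7 as red diamonds. *Gzma* lies at 9.61 and 12.6 in both MPEC libraries and at 2031 and 3660.4 in SLEC day 7, *Tcf7* and *Il7r* the other way round. Depending on the gene, grey squares lie between the other groups, with 1 of them, or outside both, as for *Gpr183*.

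Homing receptors moved both ways. Of 30 tested, 9 were higher and 8 lower, with a median near that of all genes (0.08); without WT SLEC day 7 replicate 2, 5 were higher. *Ccr7* (ENSMUSG00000037944.8, chromosome 11, 99144196 to 99155077, minus strand), the receptor for the chemokines of the T cell zone, had 22.4 and 30.4 CPM in WT MPEC, against 0 and 0.384 CPM in WT SLEC day 7 (log2 change 7.00 ± 0.67, adjusted p = 7.2e-07). Without WT SLEC day 7 replicate 2 its log2 change was 11.23, a fitted value against a library with 0 counts. *Gpr183*, the oxysterol receptor EBI2, had 105 and 140.4 CPM in WT MPEC, against 12.1 and 15.1 CPM in WT SLEC day 7 (log2 change 3.17 ± 0.28, adjusted p = 2.6e-06). *Cxcr3*, the receptor for interferon-induced chemokines, had 192 and 204 CPM in WT MPEC, against 27.4 and 63.7 CPM in WT SLEC day 7 (log2 change 2.12 ± 0.33, adjusted p = 0.0014).

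Among the receptors that fell, several are known from circulating effector cells. *Cx3cr1*, the fractalkine receptor, had 77.7 and 97.3 CPM in WT MPEC, against 735 and 598 CPM in WT SLEC day 7 (log2 change -2.93 ± 0.20, adjusted p = 2.6e-08). *S1pr5*, a sphingosine 1-phosphate receptor of circulating effectors, had 55.6 and 49.4 CPM in WT MPEC, against 502 and 268 CPM in WT SLEC day 7 (log2 change -2.87 ± 0.25, adjusted p = 3.1e-06). *Itgam*, the CD11b integrin chain, had 4.23 and 3.77 CPM in WT MPEC, against 44.3 and 59.5 CPM in WT SLEC day 7 (log2 change -3.69 ± 0.27, adjusted p = 5.8e-08). WT SLEC day 14 had 796 and 748 CPM of *Cx3cr1*, 570.4 and 549 CPM of *S1pr5* and 45.1 and 46.3 CPM of *Itgam*, far from the WT MPEC levels. *S1pr1*, the receptor for exit from lymphoid organs, did not pass the test, with 346 and 396 CPM in WT MPEC, against 347 and 296 CPM in WT SLEC day 7 (log2 change 0.20 ± 0.15, adjusted p = 0.38). In KO cells *Ccr7*, *Gpr183* and *Cxcr3* were again higher and *Cx3cr1*, *S1pr5* and *Itgam* lower.

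Cytokine receptor genes were higher more often than lower. Of 29 cytokine receptor genes 10 were higher and 4 lower, with a median of 0.30; the 10 include the sort gene *Il7r* and *Socs3*, which encodes no receptor, and 2 were lower without either WT MPEC library. *Il6ra*, the ligand-binding chain, had 40.7 and 74.7 CPM in WT MPEC, against 2.46 and 1.69 CPM in WT SLEC day 7 (log2 change 4.78 ± 0.41, adjusted p = 6.7e-07). *Il6st*, its signalling partner gp130, had 74.6 and 83.9 CPM in WT MPEC, against 29.7 and 33.8 CPM in WT SLEC day 7 (log2 change 1.32 ± 0.18, adjusted p = 5.8e-05). *Socs3*, a feedback inhibitor of gp130 signalling, had 30.7 and 37.1 CPM in WT MPEC, against 1.51 and 8.29 CPM in WT SLEC day 7 (log2 change 2.77 ± 0.39, adjusted p = 9.4e-05). Its log2 change was 4.47 without WT SLEC day 7 replicate 2. *Il18r1*, the ligand-binding chain of the interleukin 18 receptor, had 589 and 549 CPM in WT MPEC, against 446 and 448 CPM in WT SLEC day 7 and did not pass (log2 change 0.35 ± 0.13, adjusted p = 0.075). *Il18rap*, the accessory chain of the interleukin 18 receptor, was lower, with 347 and 310.2 CPM in WT MPEC, against 1633 and 908 CPM in WT SLEC day 7 (log2 change -1.95 ± 0.21, adjusted p = 6.9e-06).

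Cytokine genes moved both ways. Of 17 cytokine and chemokine genes, 7 were higher and 3 lower. Without WT MPEC replicate 1, 3 were higher, and the lower count was 5 without WT SLEC day 7 replicate 2 and 1 without WT MPEC replicate 2. *Tnfsf8*, encoding CD30 ligand, had 28.6 and 34.4 CPM in WT MPEC, against 0.397 and 0.154 CPM in WT SLEC day 7 (log2 change 6.79 ± 0.49, adjusted p = 2.6e-08). *Ltb*, encoding lymphotoxin beta, had 189 and 185 CPM in WT MPEC, against 53.7 and 68.5 CPM in WT SLEC day 7 (log2 change 1.61 ± 0.18, adjusted p = 7.4e-06). *Xcl1*, the ligand of XCR1 on cross-presenting dendritic cells, had 52 counts over WT MPEC and 0 over WT SLEC day 7, at least 18.6-fold higher taking 3 counts as the group's floor (adjusted p = 0.0097, and 0.14 without WT MPEC replicate 1). *Ccl3*, a chemokine of activated effectors, had 3.17 and 3.02 CPM in WT MPEC, against 17.4 and 10.8 CPM in WT SLEC day 7 (log2 change -2.18 ± 0.39, adjusted p = 8.9e-04). *Ifng*, encoding interferon gamma, had 13.5 and 17.1 CPM in WT MPEC, against 31.4 and 22.8 CPM in WT SLEC day 7 and did not pass (log2 change -0.83 ± 0.30, adjusted p = 0.068). Its adjusted p was 0.039 without WT SLEC day 7 replicate 2, 0.048 without WT SLEC day 14 replicate 1, and 0.046 without WT SLEC day 14 replicate 2.

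Survival and costimulation genes held few large changes. *Bcl2* (ENSMUSG00000057329.7, chromosome 1, 106538178 to 106714274, minus strand), the death inhibitor sustained by interleukin 7, had 245 and 239.9 CPM in WT MPEC, against 22.6 and 30.6 CPM in WT SLEC day 7 (log2 change 3.19 ± 0.27, adjusted p = 3.5e-06). Its WT SLEC day 14 levels were 75.2 and 91.8 CPM. *Pmaip1*, encoding the death promoter NOXA, had 35.7 and 35.5 CPM in WT MPEC, against 81.6 and 87.0 CPM in WT SLEC day 7 (log2 change -1.24 ± 0.16, adjusted p = 4.1e-05). Of 16 BCL2 family genes tested, 2 were higher and 3 lower (12.5% and 18.8%), against 8.13% and 9.04% of all tested genes. The other riser, *Bcl2l1*, encoding BCL-XL, had 60.0 and 63.9 CPM in WT MPEC, against 44.6 and 41.2 CPM in WT SLEC day 7 (log2 change 0.53 ± 0.17, adjusted p = 0.038). That call ended without any 1 of 10 libraries (adjusted p up to 0.22). The count of 3 was 1 without WT MPEC replicate 2. Among 17 costimulatory genes 5 were higher and 2 lower (29.4% and 11.8%). *Cd27*, *Cd28* and *Slamf6* were among those that rose. *Cd28*, the receptor for B7 molecules, had 208 and 213 CPM in WT MPEC, against 116 and 108 CPM in WT SLEC day 7 (log2 change 0.92 ± 0.16, adjusted p = 8.1e-04). *Slamf6*, a marker of TCF1-positive cells, had 141 and 149.9 CPM in WT MPEC, against 46.9 and 52.1 CPM in WT SLEC day 7 (log2 change 1.56 ± 0.24, adjusted p = 4.5e-04). *Cd48*, a ligand of 2B4, was lower, with 123 and 103 CPM in WT MPEC, against 369.6 and 306 CPM in WT SLEC day 7 (log2 change -1.58 ± 0.17, adjusted p = 5.5e-06); 1 member was lower without either WT MPEC library.

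Of the 29 gene groups, the G2 and M phase genes changed most uniformly. All 40 tested G2 and M phase genes were lower in WT MPEC, with a median log2 change of -4.07 (background 9.04%), and likewise 40 of 40 in KO cells alone. Their summed level was 349 and 302 CPM in WT MPEC and 2074 and 5009 CPM in WT SLEC day 7; WT SLEC day 14, at 444 and 499.5 CPM, was near the MPEC level. *Mki67*, the proliferation marker Ki-67, had 44.1 and 27.9 CPM in WT MPEC, against 513 and 1490.0 CPM in WT SLEC day 7 (log2 change -4.79 ± 0.65, adjusted p = 0.0034). *Cdk1*, the kinase of mitotic entry, had 2.11 and 4.24 CPM in WT MPEC, against 26.5 and 44.2 CPM in WT SLEC day 7 (log2 change -3.52 ± 0.37, adjusted p = 5.0e-06). *Cenpa*, the histone variant of centromeres, had 13.9 and 15.5 CPM in WT MPEC, against 77.2 and 87.0 CPM in WT SLEC day 7 (log2 change -2.49 ± 0.21, adjusted p = 4.2e-07). The WT SLEC day 7 libraries differed from each other: 39 of the 40 genes were higher in replicate 2 than in replicate 1, by a median of 2.59-fold. Fewer were called lower without WT SLEC day 7 replicate 2, and fewer again without either WT MPEC library.

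Promoter sequences of 3 of these genes are shown because the whole group fell together. Late cell cycle promoters are known for CCAAT boxes, bound by NF-Y, and for the CHR element TTTGAA, bound by the DREAM complex. *Ccna2*, encoding cyclin A2, had a larger change than any of them, with 1.13 and 0.188 CPM in WT MPEC, against 31.8 and 122 CPM in WT SLEC day 7 (log2 change -6.74 ± 1.02, adjusted p = 0.0037), though its adjusted p was 0.053 without WT MPEC replicate 2. *Ccnb2*, encoding cyclin B2, had 1.44 and 0.0942 CPM in WT MPEC, against 46.5 and 119.8 CPM in WT SLEC day 7 (log2 change -6.62 ± 0.61, adjusted p = 1.5e-05). *Bub1*, a spindle checkpoint kinase, had 0.604 and 0 CPM in WT MPEC, against 8.27 and 28.7 CPM in WT SLEC day 7 (log2 change -5.75 ± 0.88, adjusted p = 2.0e-04). Its log2 change was -10.74 without WT MPEC replicate 1, which leaves 0 counts in that group. *Birc5*, encoding survivin, had 1.81 and 0.565 CPM in WT MPEC, against 33.5 and 84.3 CPM in WT SLEC day 7 (log2 change -5.55 ± 0.56, adjusted p = 8.7e-06). The sequences below are the 250 bases before the annotated start in RefSeq (build GRCm38.p6), read 5′ to 3′ on the gene's strand, with capitals marking CCAAT or TTTGAA on either strand.
Ccnb2, chr9:70421555-70421804, minus strand: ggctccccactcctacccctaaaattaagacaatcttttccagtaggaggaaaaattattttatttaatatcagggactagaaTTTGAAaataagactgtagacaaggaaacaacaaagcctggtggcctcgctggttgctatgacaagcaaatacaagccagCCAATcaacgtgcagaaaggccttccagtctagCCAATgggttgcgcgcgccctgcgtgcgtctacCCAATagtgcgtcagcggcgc
Bub1, chr2:127831860-127832109, minus strand: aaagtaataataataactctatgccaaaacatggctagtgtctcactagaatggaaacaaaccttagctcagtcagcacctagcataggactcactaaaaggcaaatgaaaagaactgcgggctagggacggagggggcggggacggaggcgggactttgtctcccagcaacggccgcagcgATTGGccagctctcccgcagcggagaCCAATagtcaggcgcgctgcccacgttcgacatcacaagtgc
Birc5, chr11:117848987-117849236, plus strand: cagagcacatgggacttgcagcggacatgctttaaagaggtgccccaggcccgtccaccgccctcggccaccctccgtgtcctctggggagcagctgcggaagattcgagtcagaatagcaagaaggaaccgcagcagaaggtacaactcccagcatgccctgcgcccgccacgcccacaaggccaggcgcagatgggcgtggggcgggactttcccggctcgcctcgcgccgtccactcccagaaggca
The *Ccnb2* window holds 3 CCAAT boxes and 1 TTTGAA, the *Bub1* window 2 and 0, and the *Birc5* window 0 and 0. The 2 motifs do not overlap in any of the 3. Over the 35 G2 and M phase genes with a promoter in the table, 26 (74.3%) held CCAAT, against 37.0% of 9526 tested genes and 34.5% of all 27018 promoters of that length. TTTGAA was in 11 of 35 (31.4%), against 10.9% of tested genes and 16.3% of all. Both were in 9 of 35 (25.7%), against 4.30% and 5.73%. A match describes the letters only.

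Replication genes followed, less evenly. In KO cells alone 37 of 45 S phase genes were lower, against 12.3% of all genes tested there. Of 45 tested in WT, 24 were lower and 0 higher, with a median of -1.56. The number rested on the libraries: it was 44 without WT SLEC day 7 replicate 1, 16 without replicate 2, and 8 without either WT MPEC library. Their summed level was 1477 and 1555 CPM in WT MPEC, against 1774 and 4847 CPM in WT SLEC day 7, and SLEC replicate 1 was close to the MPEC level. All 45 genes were higher in SLEC replicate 2 than in replicate 1. *Rpa2*, a single-strand DNA binding protein, had 49.2 and 40.6 CPM in WT MPEC, against 111 and 116 CPM in WT SLEC day 7 (log2 change -1.34 ± 0.16, adjusted p = 1.4e-05). *Pcna*, the polymerase clamp, had 25.1 and 26.9 CPM in WT MPEC, against 52.2 and 65.0 CPM in WT SLEC day 7 (log2 change -1.18 ± 0.20, adjusted p = 4.9e-04). *E2f2*, an activator of S phase genes, had 19.6 and 19.9 CPM in WT MPEC, against 122 and 197 CPM in WT SLEC day 7 (log2 change -3.01 ± 0.34, adjusted p = 1.5e-04). Replication-dependent histone genes were lower in 40 of 42 cases, with a median of -4.08, and in 42 of 42 in KO cells. Fewer were called lower in WT without WT SLEC day 7 replicate 2 or without either WT MPEC library. *Hist1h1b*, encoding the linker histone H1.5, had 9.97 and 3.67 CPM in WT MPEC, against 284 and 546 CPM in WT SLEC day 7 (log2 change -5.88 ± 0.39, adjusted p = 3.1e-06). *Hist1h1c*, a linker histone gene also used outside S phase, fell less, with 446 and 419.9 CPM in WT MPEC, against 1452 and 1669.6 CPM in WT SLEC day 7 (log2 change -1.85 ± 0.15, adjusted p = 4.1e-07). Core histone genes are close copies, so reads may be shared among them.

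**Figure D3:**
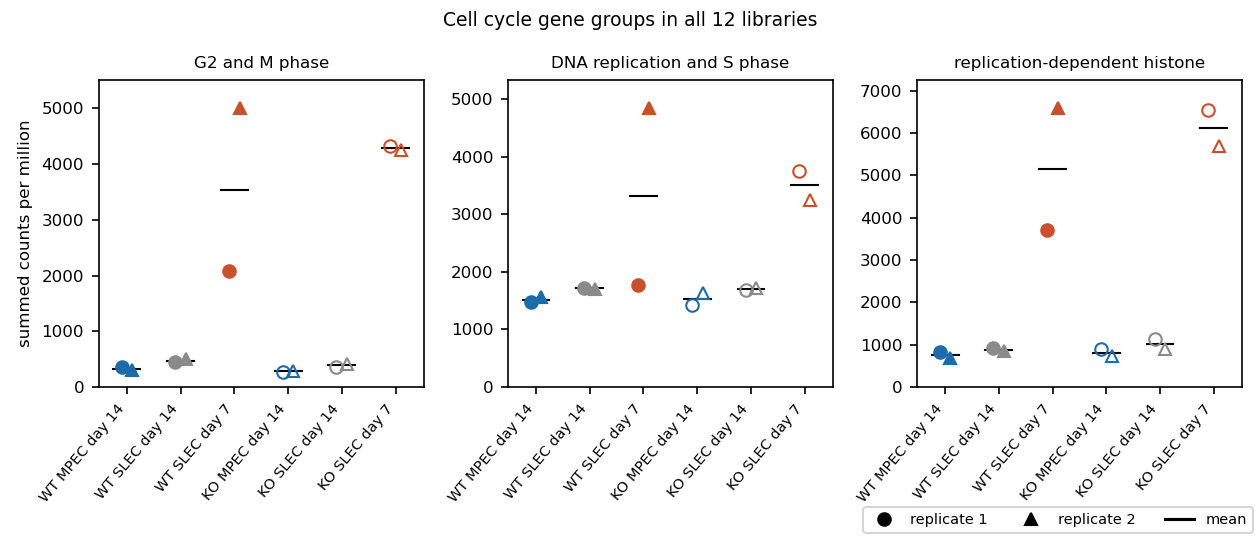
Summed CPM of the genes of 3 cell cycle groups in all 12 libraries; circles are replicate 1, triangles replicate 2, bars the mean of 2, filled symbols WT and open symbols KO. For each group of genes the day 7 SLEC libraries stand above every day 14 library, MPEC or SLEC. The 2 WT SLEC day 7 libraries lie apart, at 2074 and 5009 CPM for G2 and M phase.

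Most genes of ribosome building were higher in WT MPEC. Of 36 ribosome biogenesis and Myc target genes 24 were higher and 0 lower, with a median of 0.75. The count was 13 without WT MPEC replicate 2, and it was 24 of 36 in KO cells alone. Summed levels were 4373 and 4899.7 CPM in WT MPEC, 3038 and 3130.1 CPM in WT SLEC day 14 and 2617 and 3151 CPM in WT SLEC day 7. *Myc* (ENSMUSG00000022346.15, chromosome 15, 61985391 to 61990374, plus strand), the growth-promoting transcription factor, had 87.6 and 88.3 CPM in WT MPEC, against 6.44 and 15.1 CPM in WT SLEC day 7 (log2 change 3.02 ± 0.38, adjusted p = 2.4e-04). Its WT SLEC day 14 level was 6.70 and 19.0 CPM. *Polr1a*, the large subunit of RNA polymerase I, had 116 and 126 CPM in WT MPEC, against 42.4 and 45.2 CPM in WT SLEC day 7 (log2 change 1.47 ± 0.15, adjusted p = 3.1e-06). *Utp20*, of the small subunit processome, had 89.8 and 101 CPM in WT MPEC, against 25.4 and 33.6 CPM in WT SLEC day 7 (log2 change 1.69 ± 0.18, adjusted p = 5.3e-06). *Mybbp1a*, a nucleolar protein, had 184 and 209 CPM in WT MPEC, against 56.7 and 81.4 CPM in WT SLEC day 7 (log2 change 1.51 ± 0.19, adjusted p = 3.1e-05).

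A part of the cytosolic ribosomal protein genes was higher. Of 77 tested, 24 were higher and 0 lower, and the rest did not pass the test, with a median of 0.45; the count was 14 without WT SLEC day 7 replicate 2 or without WT MPEC replicate 1 and 12 without WT MPEC replicate 2. *Rplp1*, of the ribosomal stalk, had 1430.2 and 1496 CPM in WT MPEC, against 765 and 652 CPM in WT SLEC day 7 (log2 change 1.05 ± 0.17, adjusted p = 3.7e-04). *Rps20*, of the small subunit, had 172 and 195 CPM in WT MPEC, against 100.4 and 92.4 CPM in WT SLEC day 7 (log2 change 0.93 ± 0.16, adjusted p = 4.6e-04). Summed, the group reached 13617 and 14486 CPM in WT MPEC, against 10884 and 8404 CPM in WT SLEC day 7. Ribosomal protein genes have many processed pseudogenes, which can take or give reads. In KO cells 15 of 76 were higher and 1 lower, against 10.8% and 12.3% of all genes tested there.

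Interferon response genes were higher in part. Of 31 tested, 14 were higher and 0 lower, with a median of 0.75. The count was 9 without WT SLEC day 7 replicate 1, 8 without WT SLEC day 7 replicate 2, 6 without WT MPEC replicate 1, and 7 without WT MPEC replicate 2. In KO cells 11 of 29 were higher, against 10.8% of all genes tested there. *Oas3*, a sensor of double-stranded RNA, had 129.8 and 126 CPM in WT MPEC, against 41.9 and 53.4 CPM in WT SLEC day 7 (log2 change 1.42 ± 0.23, adjusted p = 5.2e-04). *Ifih1*, encoding MDA5, had 50.7 and 52.8 CPM in WT MPEC, against 26.6 and 18.9 CPM in WT SLEC day 7 (log2 change 1.19 ± 0.20, adjusted p = 4.9e-04). *Rsad2*, encoding viperin, had 12.2 and 13.9 CPM in WT MPEC, against 1.75 and 1.84 CPM in WT SLEC day 7 (log2 change 2.85 ± 0.48, adjusted p = 4.5e-04). In KO cells *Rsad2* changed by 0.84 (adjusted p = 0.13) and was not called. The difference between genotypes did not pass its own test (adjusted p = 1.00).

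Energy and protein turnover genes were lower in part. The shares over all tested genes in WT were 9.04% lower and 8.13% higher. Of 75 nuclear respiratory chain genes 24 were lower and 1 higher, with a median of -0.44; the lower count was 13 without WT SLEC day 7 replicate 1, 7 without WT MPEC replicate 1, and 6 without WT MPEC replicate 2. *Cox5b*, of cytochrome c oxidase, had 54.7 and 63.1 CPM in WT MPEC, against 122 and 137 CPM in WT SLEC day 7 (log2 change -1.14 ± 0.16, adjusted p = 1.1e-04). *Atp5h*, of ATP synthase, had 40.2 and 36.2 CPM in WT MPEC, against 104 and 85.9 CPM in WT SLEC day 7 (log2 change -1.31 ± 0.21, adjusted p = 2.7e-04). The riser was *Sdha*, the catalytic subunit of succinate dehydrogenase, with 232 and 267 CPM in WT MPEC, against 143 and 184 CPM in WT SLEC day 7 (log2 change 0.61 ± 0.16, adjusted p = 0.013). Its partner *Sdhb* was lower, with 48.6 and 47.0 CPM in WT MPEC, against 86.0 and 85.3 CPM in WT SLEC day 7 (log2 change -0.84 ± 0.17, adjusted p = 0.0025). The *Sdha* call ended without WT SLEC day 7 replicate 1 or WT MPEC replicate 2 (adjusted p up to 0.15), and 2 genes were called higher without WT SLEC day 7 replicate 2. Of 36 proteasome genes 10 were lower and 0 higher, with a median of -0.39; the count was 2 without WT MPEC replicate 1 and 3 without WT MPEC replicate 2. *Psmd8*, of the proteasome lid, had 80.8 and 75.3 CPM in WT MPEC, against 172 and 184 CPM in WT SLEC day 7 (log2 change -1.19 ± 0.14, adjusted p = 2.2e-05). Proteasome genes summed to 2709 and 2879 CPM in WT MPEC, 2340.2 and 2262 CPM in WT SLEC day 14 and 3176 and 3642 CPM in WT SLEC day 7. In KO cells 35 of 74 respiratory chain and 18 of 36 proteasome genes were lower, against 12.3% of all genes tested there.

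**Figure D4:**
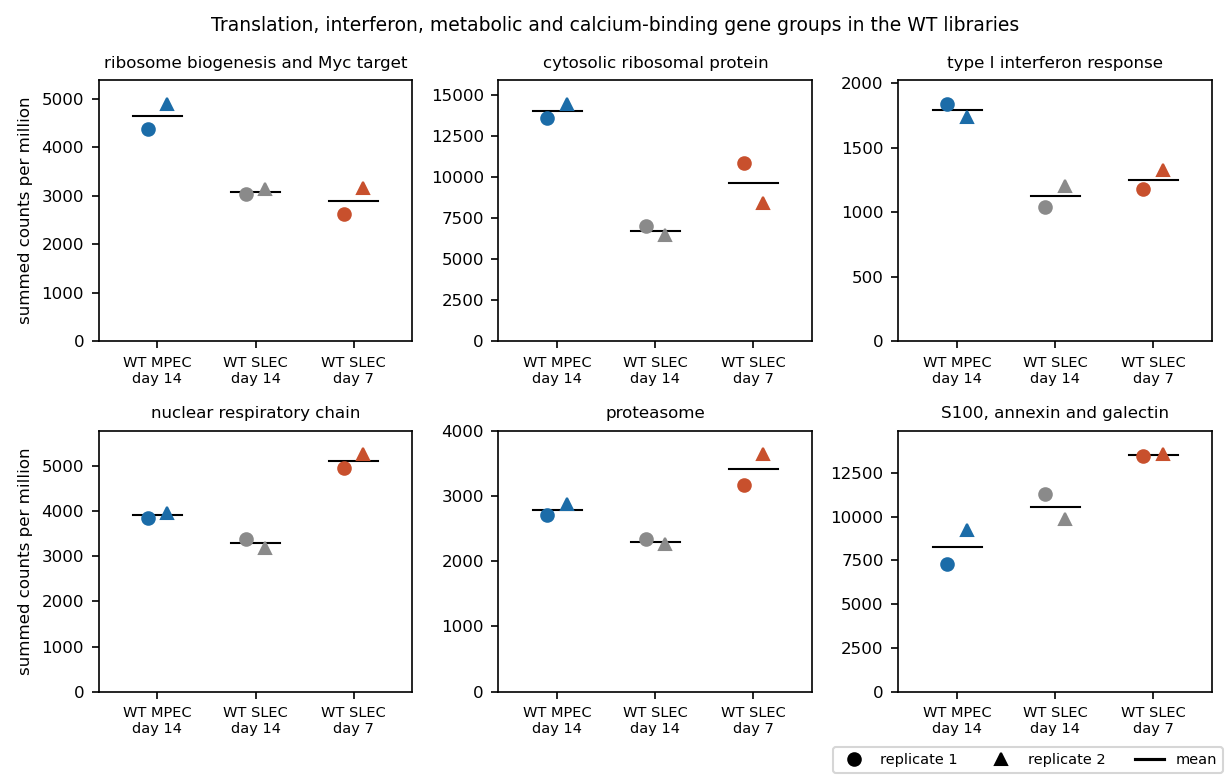
Summed CPM of the genes of 6 groups in the WT libraries; circles are replicate 1, triangles replicate 2 and bars the mean of 2, with every axis starting at 0. Ribosome biogenesis, ribosomal protein and interferon sums are highest in WT MPEC day 14, and respiratory chain, proteasome and S100 group sums are highest in WT SLEC day 7.

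Metabolic regulators changed individually. *Pdk1*, which restrains pyruvate entry into mitochondria, had 96.1 and 89.6 CPM in WT MPEC, against 12.954 and 12.1 CPM in WT SLEC day 7 (log2 change 2.89 ± 0.22, adjusted p = 9.1e-08). In all, 3 of 26 glycolysis genes were higher and 1 lower (11.5% and 3.85%), against 8.13% and 9.04% of all tested genes. Without either WT MPEC library 1 was higher and 0 lower; the lower count was 2 without WT SLEC day 7 replicate 1 or either KO SLEC day 14 library. *Ppargc1b*, a coactivator of mitochondrial genes, had 31.0 and 34.5 CPM in WT MPEC, against 7.07 and 8.06 CPM in WT SLEC day 7 (log2 change 2.11 ± 0.23, adjusted p = 7.0e-06). *Etfb*, the electron carrier of fatty acid oxidation, had 4.76 and 5.65 CPM in WT MPEC, against 14.5 and 15.6 CPM in WT SLEC day 7 (log2 change -1.54 ± 0.31, adjusted p = 0.0023). Of 22 fatty acid oxidation and lipase genes 2 were higher and 5 lower (9.09% and 22.7%), against the same 8.13% and 9.04%. The lower count was 3 without WT SLEC day 7 replicate 1 or without WT SLEC day 7 replicate 2, 2 without WT MPEC replicate 1, and 1 without WT MPEC replicate 2, and the higher count 1 without WT MPEC replicate 2. In the synthesis group of 29 genes 7 were lower and 2 higher (24.1% and 6.90%). *Dhcr7*, of the last step of cholesterol synthesis, had 14.4 and 18.1 CPM in WT MPEC, against 38.5 and 34.5 CPM in WT SLEC day 7 (log2 change -1.18 ± 0.23, adjusted p = 0.0017). *Fasn*, fatty acid synthase, had 172 and 213 CPM in WT MPEC, against 82.6 and 122 CPM in WT SLEC day 7 (log2 change 0.91 ± 0.18, adjusted p = 0.0018). The 7 were 3 without WT SLEC day 7 replicate 2 or either WT MPEC library, and the 2 were 5 without WT SLEC day 7 replicate 2 and 1 without any of the other 3 libraries of the contrast. Of the 7 tested mitochondrial genes of the respiratory chain, 1 was called: *mt-Nd2*, with 619 and 831 CPM in WT MPEC, against 445 and 337 CPM in WT SLEC day 7 (log2 change 0.89 ± 0.20, adjusted p = 0.0046). Its adjusted p was 0.088 without WT MPEC replicate 2; 2 genes of the group were higher without WT MPEC replicate 1 or without 1 of the KO MPEC libraries.

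Genes for S100 proteins, annexins and galectins, abundant in activated and migrating cells, were lower in part. Of 24 tested 12 were lower and 12 did not pass the test, with a median of -0.75; the count was 7 without WT MPEC replicate 1 and 6 without WT MPEC replicate 2. *Lgals1*, encoding galectin 1, had 178 and 186 CPM in WT MPEC, against 908 and 1081 CPM in WT SLEC day 7 (log2 change -2.45 ± 0.19, adjusted p = 1.4e-07). *S100a10*, the annexin A2 partner, had 395 and 416 CPM in WT MPEC, against 1292 and 1040.4 CPM in WT SLEC day 7 (log2 change -1.52 ± 0.19, adjusted p = 3.7e-05). *S100a4*, a calcium-binding motility factor, had 21.5 and 13.7 CPM in WT MPEC, against 79.3 and 90.6 CPM in WT SLEC day 7 (log2 change -2.25 ± 0.23, adjusted p = 2.7e-06). WT SLEC day 14 had 406 and 359 CPM of *Lgals1*, 467 and 428 CPM of *S100a10* and 28.7 and 22.5 CPM of *S100a4*, nearer to WT MPEC than to WT SLEC day 7. *S100a6*, a calcium-binding protein gene, had 177 and 155 CPM in WT MPEC, against 184 and 348 CPM in WT SLEC day 7 and was not called (log2 change -0.68 ± 0.25, adjusted p = 0.079); it was without WT SLEC day 7 replicate 1 (adjusted p = 2.7e-04).

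Smaller groups were mixed. Over all tested genes 8.13% were higher and 9.04% lower. The single lower calls in the immediate early and T cell receptor groups (3.57% and 5%) lie below that share. Of 28 immediate early genes 4 were higher and 1 lower; the higher count was 2 without WT MPEC replicate 1. The lower call, *Nr4a1*, a nuclear receptor induced by receptor signalling, had 7.70 and 9.89 CPM in WT MPEC, against 46.6 and 12.7 CPM in WT SLEC day 7 (log2 change -1.76 ± 0.53, adjusted p = 0.042). It was lost without any 1 of 11 libraries (adjusted p up to 0.38; log2 change -0.55 without WT SLEC day 7 replicate 1), while 8 genes were lower without WT SLEC day 7 replicate 2. *Dusp6*, a phosphatase that limits ERK, had 20.8 and 13.002 CPM in WT MPEC, against 4.13 and 6.76 CPM in WT SLEC day 7 (log2 change 1.65 ± 0.35, adjusted p = 0.0031); the adjusted p was 0.088 without WT MPEC replicate 1. In the T cell receptor group 1 of 20 genes, *Cd247*, the CD3 zeta chain, was called lower, with 261 and 280.3 CPM in WT MPEC, against 394 and 369.9 CPM in WT SLEC day 7 (log2 change -0.50 ± 0.16, adjusted p = 0.042). That call ended without any 1 of 10 libraries (adjusted p up to 0.23). *Cd8a*, the coreceptor chain, had 758 and 796 CPM in WT MPEC, against 1115 and 869.8 CPM in WT SLEC day 7 (log2 change -0.35 ± 0.16, adjusted p = 0.14). Without WT SLEC day 7 replicate 2 its adjusted p was 0.032. Of 8 GIMAP genes, GTPases of lymphocyte survival, 2 were lower, at -0.58 (*Gimap7*) and -0.45 (*Gimap8*) on the log2 scale, and 0 or 1 after leaving out any 1 of 11 libraries. Without WT MPEC replicate 2 the *Gimap8* change was -0.25.

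Clock genes moved both ways. Of 14 tested, 4 were higher and 4 lower. The shares over all tested genes, for every group of this paragraph, were 8.13% higher and 9.04% lower. *Nr1d2*, a repressor of the clock activators, had 46.4 and 44.0 CPM in WT MPEC, against 21.1 and 10.6 CPM in WT SLEC day 7 (log2 change 1.51 ± 0.27, adjusted p = 8.6e-04). *Dbp*, an output gene, had 10.7 and 10.8 CPM in WT MPEC, against 4.85 and 3.30 CPM in WT SLEC day 7 (log2 change 1.40 ± 0.34, adjusted p = 0.0082), though the adjusted p was 0.063 without WT SLEC day 7 replicate 2, 0.057 without WT MPEC replicate 1, and 0.055 without WT MPEC replicate 2. *Cry1*, a repressor of the negative arm, was lower, with 30.3 and 33.3 CPM in WT MPEC, against 62.9 and 64.6 CPM in WT SLEC day 7 (log2 change -1.01 ± 0.22, adjusted p = 0.0045); its adjusted p was 0.062 without WT MPEC replicate 1. The higher count was 1 without WT SLEC day 7 replicate 2 and 2 without WT MPEC replicate 1 or without WT MPEC replicate 2, and the lower count 2 without WT SLEC day 7 replicate 1 and 1 without WT MPEC replicate 1. The hour of collection is not given in the labels. Among DNA methylation and Polycomb genes 4 of 24 were higher and 1 lower (16.7% and 4.17%). *Tet3*, which oxidises methylcytosine, had 198 and 240.1 CPM in WT MPEC, against 130.1 and 106 CPM in WT SLEC day 7 (log2 change 0.90 ± 0.16, adjusted p = 9.4e-04). *Ezh2*, the Polycomb methyltransferase, had 70.0 and 79.1 CPM in WT MPEC, against 94.5 and 172 CPM in WT SLEC day 7 (log2 change -0.84 ± 0.23, adjusted p = 0.018); its adjusted p was 0.27 without WT SLEC day 7 replicate 2, 0.14 without WT MPEC replicate 1, and 0.081 without WT MPEC replicate 2, and its log2 change was -0.35 without WT SLEC day 7 replicate 2. The higher count was 2 without WT MPEC replicate 1 or without WT MPEC replicate 2, and the lower count 4 without WT SLEC day 7 replicate 1 and 0 without WT MPEC replicate 1 or without WT MPEC replicate 2. Of 15 amino acid and iron uptake genes 4 were higher, or 2 without WT MPEC replicate 2; *Slc38a1*, a glutamine carrier, had 245 and 251 CPM in WT MPEC, against 160.1 and 152 CPM in WT SLEC day 7 (log2 change 0.67 ± 0.14, adjusted p = 0.0028).

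Among the genes with the largest changes were several outside these groups. *Slfn5*, a Schlafen family gene, had 103 and 86.6 CPM in WT MPEC, against 4.93 and 4.76 CPM in WT SLEC day 7 (log2 change 4.29 ± 0.35, adjusted p = 1.2e-06). *Vipr1*, the receptor for vasoactive intestinal peptide, had 47.7 and 51.9 CPM in WT MPEC, against 2.78 and 5.07 CPM in WT SLEC day 7 (log2 change 3.66 ± 0.32, adjusted p = 5.6e-07). *Insr*, the insulin receptor, had 27.8 and 28.1 CPM in WT MPEC, against 2.78 and 2.53 CPM in WT SLEC day 7 (log2 change 3.39 ± 0.35, adjusted p = 4.1e-06). *Arhgap5*, a GTPase-activating protein gene, had 29.0 and 41.0 CPM in WT MPEC, against 1.59 and 1.84 CPM in WT SLEC day 7 (log2 change 4.33 ± 0.39, adjusted p = 7.9e-07). *Nsg2*, known as a neuronal vesicle protein, had 78.3 and 103 CPM in WT MPEC, against 12.6 and 2.84 CPM in WT SLEC day 7 (log2 change 3.55 ± 0.37, adjusted p = 2.6e-05). *Aff3*, a nuclear protein also made by B cells, had 160.0 and 175 CPM in WT MPEC, against 10.9 and 6.60 CPM in WT SLEC day 7 (log2 change 4.26 ± 0.44, adjusted p = 1.6e-04); the part of B cell RNA in this was not tested. *Cdh1*, encoding E-cadherin, had 143 counts over WT MPEC and 0 over WT SLEC day 7, at least 51.2-fold higher with the same floor; it was chosen after its values were seen. On the lower side *Notch3*, a Notch receptor, had 0.604 and 0.942 CPM in WT MPEC, against 141 and 37.6 CPM in WT SLEC day 7 (log2 change -6.87 ± 0.99, adjusted p = 0.0046); its adjusted p was 0.062 without WT MPEC replicate 1 and 0.063 without WT MPEC replicate 2.

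The same contrast was made with the KO libraries. They are not compared in the WT contrast, but they enter its low-count filter and its estimate of the spread. The WT calls are therefore not fully independent of the KO libraries. Fitted alone, the KO libraries gave 1401 genes higher and 1596 lower in KO MPEC than in KO SLEC day 7. That is 10.8% and 12.3% of 13011 tested (23.0% together). Of the 1176 genes higher in WT, 871 were also called higher in KO (74.1% of the WT list and 62.2% of the KO list), and of the 1307 lower, 1004 were called lower (76.8% and 62.9%). Of these genes 0 were called in the opposite direction. Of the WT calls tested in KO, 99.1% of the higher and 99.5% of the lower had the same sign. *Gzma* changed by -8.70 (adjusted p = 1.6e-13) in KO, *Bcl2* by 3.26 (adjusted p = 4.3e-07) and *Zeb2* by -2.58 (adjusted p = 1.4e-09). *Tcf7* changed by 3.85 (adjusted p = 0.057) in KO and did not pass the threshold there.

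**Figure D5:**
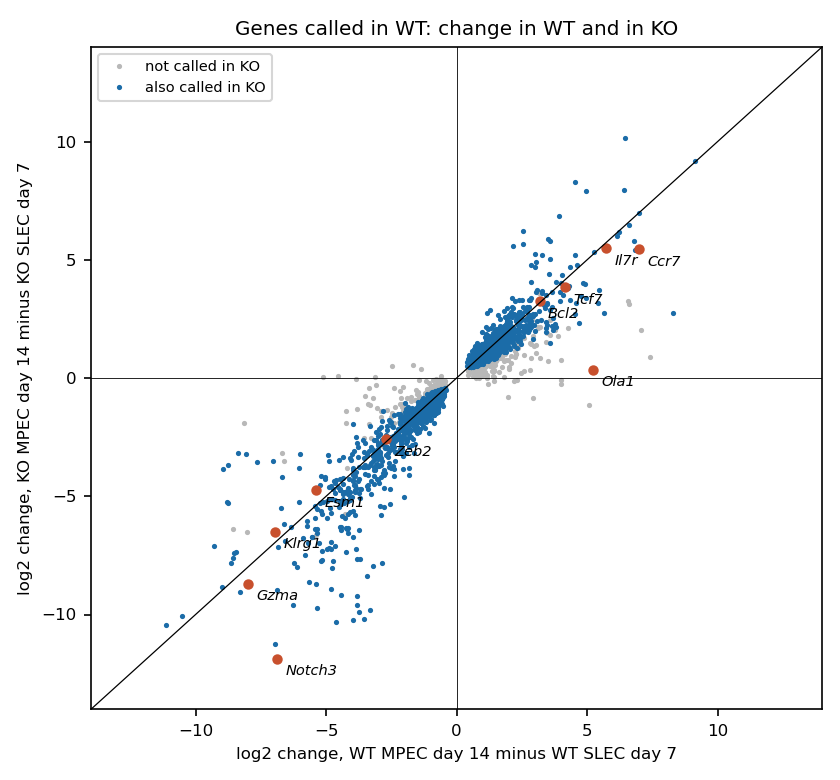
Log2 change of 2424 genes called in WT and tested in KO, with WT MPEC day 14 minus WT SLEC day 7 on the x axis and KO MPEC day 14 minus KO SLEC day 7 on the y axis; blue points (1875 genes) were also called in KO, grey points were not, red points are named genes, and the line marks equal change. Changes at the far ends often rest on groups with few or no counts. *Ola1* lies far from the line.

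The difference between the KO and the WT contrast passed the test for 1 gene, 0.00692% of those tested, and 375 genes had an unadjusted p under 0.05. *Ola1* (ENSMUSG00000027108.15, chromosome 2, 73092801 to 73218924, minus strand), encoding an ATPase related to Obg proteins, had 2472 and 4192 CPM in WT MPEC, against 81.6 and 95.5 CPM in WT SLEC day 7 (log2 change 5.23 ± 0.35, adjusted p = 3.1e-06). KO MPEC had 2461 and 3994 CPM and KO SLEC day 7 2285 and 2764 CPM, a change of 0.35 (adjusted p = 0.32). The change in KO minus that in WT was -4.88 ± 0.43 on the log2 scale (adjusted p = 0.0036). WT SLEC day 14 had 1639 and 1560.2 CPM and KO SLEC day 14 2488 and 3813 CPM. The number of such genes was 19 without WT SLEC day 7 replicate 2, and 0 without WT SLEC day 7 replicate 1 or without either KO SLEC day 7 library.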

How the data were processed

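Bulk RNA-seq was made from sorted OT-I cells with the SMART-Seq Stranded kit. The authors deposited 1 table of raw counts. STAR 2.6.1a and GRCm38 are named in the submitters' processing notes. How reads were counted, with which annotation and strand setting, is not stated in the sources used here. Counts of antisense or overlapping pairs and of near-identical copies are therefore uncertain.

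Genes were filtered with edgeR's filterByExpr over the 6 groups, which left 14460 of 55421. Counts were scaled by trimmed mean of M-values factors and fitted over all 12 libraries, which share 1 estimate of the spread, with edgeR 4.0.16 (quasi-likelihood, robust; R 4.3.3). Adjusted p-values are Benjamini-Hochberg values over all 14460 genes, errors are standard errors, and a call is an adjusted p under 0.05. The KO contrast was fitted on the 6 KO libraries alone, and the difference of the contrasts as an interaction over all 12. Alternatives were DESeq2 1.42.0, other scalings, filters and sample sets, a replicate block and leaving out each library. Intervals and floors cover counting error only.

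The members and gene lists were chosen with earlier results of these data known. Named genes were taken by a rule: the 15 largest rises and 15 largest falls among called genes whose mean log2 CPM was at least 3 and whose groups did not overlap, up to 5 called members and 2 others with the smallest p of each T cell list, and a list of well-known markers. The text gives part of these, preferring calls that held when a library was left out. *Bub1*, *Ccna2*, *Ccnb2*, *Gzmm*, *Klf2*, *S1pr1*, *Xcl1* and *Cdh1*, the neighbours of *Gzma* and genes named as the only calls of a group were chosen after their values were seen. Promoters came from RefSeq, and no promoter of the homing genes is shown. A few genes of the lists are not reported here. Sums in CPM do not correct for gene length.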

Additional observations from a re-analysis of the deposited data

Results flagged for a closer look

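*Ola1*, encoding an Obg-related ATPase, was picked out because its MPEC day 14 against SLEC day 7 change differed between genotypes. The change in KO minus that in WT was -4.88 on the log2 scale (edgeR interaction, adjusted p = 0.0036). Both KO SLEC day 7 libraries were at the level of the MPEC libraries, and both WT SLEC day 7 libraries were far below it.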

How the results depend on the processing

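Against 1176 genes higher and 1307 lower, the 4 libraries of the contrast alone gave 729 and 787, and a test against a 1.5-fold change gave 379 and 472. DESeq2, other scalings, other filters and the 6 WT libraries kept both counts within 1.5 times, and under every alternative run 0 of the called genes were called in the opposite direction. Leaving out 1 library gave 539 to 1184 higher and 477 to 1380 lower in WT. In the KO contrast it gave 795 to 1108 higher and 814 to 1519 lower, of which 609 to 750 and 643 to 890 matched a WT call, and 0 to 19 genes for the difference of the contrasts. Low counts limit genes near 0 in 1 group, whose folds are bounds. *Id2*, which was not called, ranged over both signs when 1 library was left out, between -0.22 and 0.18. The labels do not say whether libraries of the same replicate number are paired. The deviations of same-numbered WT SLEC day 7 and WT MPEC libraries correlated at -0.13 over genes. With 2 libraries per group this cannot decide whether they were paired. A replicate block over 12 libraries gave 1174 and 1305 calls. Within the 4 libraries, added after seeing the data, the block gave 620 and 679, and 906 and 1042 with the numbers crossed.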
